A study of Homo sapiens with 6 samples.

Results

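The genes described here are 35 genes of the endoplasmic reticulum (ER): chaperones and folding enzymes, the machinery of ER-associated degradation, parts of the translocation and export apparatus, and the sensors and transcription factors of the unfolded protein response. They were taken from a list of gene symbols, chosen with earlier results of these data known. All 35 were found among the 58735 genes of the count table. By role, 16 are chaperones and folding factors, 11 are degradation genes, 4 belong to translocation, export or UFM1 tagging, and 4 are stress sensors and transcription factors. After a filter on low counts 34 remained for testing. DERL3, a derlin of professional secretory cells, did not pass: it had 2, 0 and 0 counts in siUAP1 libraries and 3, 1 and 1 counts in control libraries, and most of its annotated exon sequence (77%) overlaps SMARCB1 on the opposite strand.

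Proteins that enter the ER are folded by chaperones of the HSP70 and HSP90 families, by the lectins calnexin and calreticulin, which bind sugar chains attached to the new protein, and by disulfide isomerases. Proteins that fail to fold are carried back across the membrane and degraded. When unfolded protein builds up, the sensors IRE1 (gene ERN1), ATF6 and PERK switch on genes of both systems, a programme called the unfolded protein response. UAP1 makes UDP-N-acetylglucosamine, the sugar donor with which every N-linked chain begins.

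The groups compared were siUAP1 and control ES2 cells, 3 libraries each. ES2 is a human ovarian cancer line, labelled as high-grade serous carcinoma. The siUAP1 cells were transfected with small interfering RNA (siRNA) against UAP1, and the control cells with a control siRNA. Both groups had their medium changed at 6 hours and gave RNA 48 hours after transfection. The labels list 2 UAP1 siRNAs without saying whether they were pooled, and do not call the replicates separate cultures. The p-values therefore reflect the spread between libraries only, which may be technical.

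The siUAP1 libraries held 23727266, 25972582 and 25909989 counts (replicates 1 to 3) and the control libraries 21267240, 25054159 and 24842621. UAP1 (ENSG00000117143) was at 21.8, 23.3 and 25.2 CPM (counts scaled to library size, TMM-adjusted) in siUAP1 libraries and at 345, 357 and 444 CPM in control libraries, a log2 difference of -4.03 with an SE of 0.136 (edgeR adjusted p = 6.12e-06). Of the markers of the labelled tumour type, MUC16 and SOX17 had 0 counts in all 6 libraries, which allows at most 0.141 CPM in the shallowest one, and counting error only is covered by that limit. PAX8 averaged 1.47 CPM in siUAP1 and 1.01 CPM in control libraries, and WT1 1.76 and 2.02 CPM. The keratin gene KRT7 averaged 508 CPM in siUAP1 and 337 CPM in control libraries, and vimentin (VIM) 1874 and 2075 CPM. MZB1 and JCHAIN, markers of plasma cells, a type rich in ER, had at most 2 counts in any library, while SDC1, which plasma cells share with epithelial cells, averaged 247 CPM in siUAP1 and 232 CPM in control libraries.

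Levels between genes were compared on the authors' FPKM values, which divide by gene length. Calreticulin (CALR) was the most abundant member by its control mean, at 386 ± 25.5 FPKM in siUAP1 and 341 ± 44.7 FPKM in control libraries (SD, n = 3 each). The HSP70 chaperone BiP (HSPA5) followed with 297 ± 56.4 FPKM in siUAP1 and 324 ± 147 FPKM in control libraries, and the HSP90 chaperone GRP94 (HSP90B1) with 229 ± 7.73 and 240 ± 28.4 FPKM. CALR lay above HSP90B1 in all 6 libraries, and the values of HSPA5 overlapped those of both in control libraries. PDIA4 (164 FPKM in siUAP1, 191 FPKM in control), CANX (137 and 133 FPKM), PDIA3 (125 and 119 FPKM) and P4HB (118 and 123 FPKM) completed the 7 genes above 100 FPKM in control cells, all of them chaperones or folding enzymes. Sensor mRNA was scarce by comparison: ERN1 was at 2.49 ± 0.0863 FPKM in siUAP1 and 2.48 ± 0.15 FPKM in control libraries, and ATF6 at 13.7 and 11.7 FPKM. The 16 chaperones summed to 1818, 1595 and 1596 FPKM in siUAP1 libraries and to 2080, 1534 and 1500 FPKM in control libraries, so that control replicate 1 stood above the other 5 libraries. The 11 degradation genes summed to 158, 138 and 139 FPKM in siUAP1 and to 168, 136 and 135 FPKM in control libraries, with replicate 1 again the highest of each group.

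**Figure D1:**
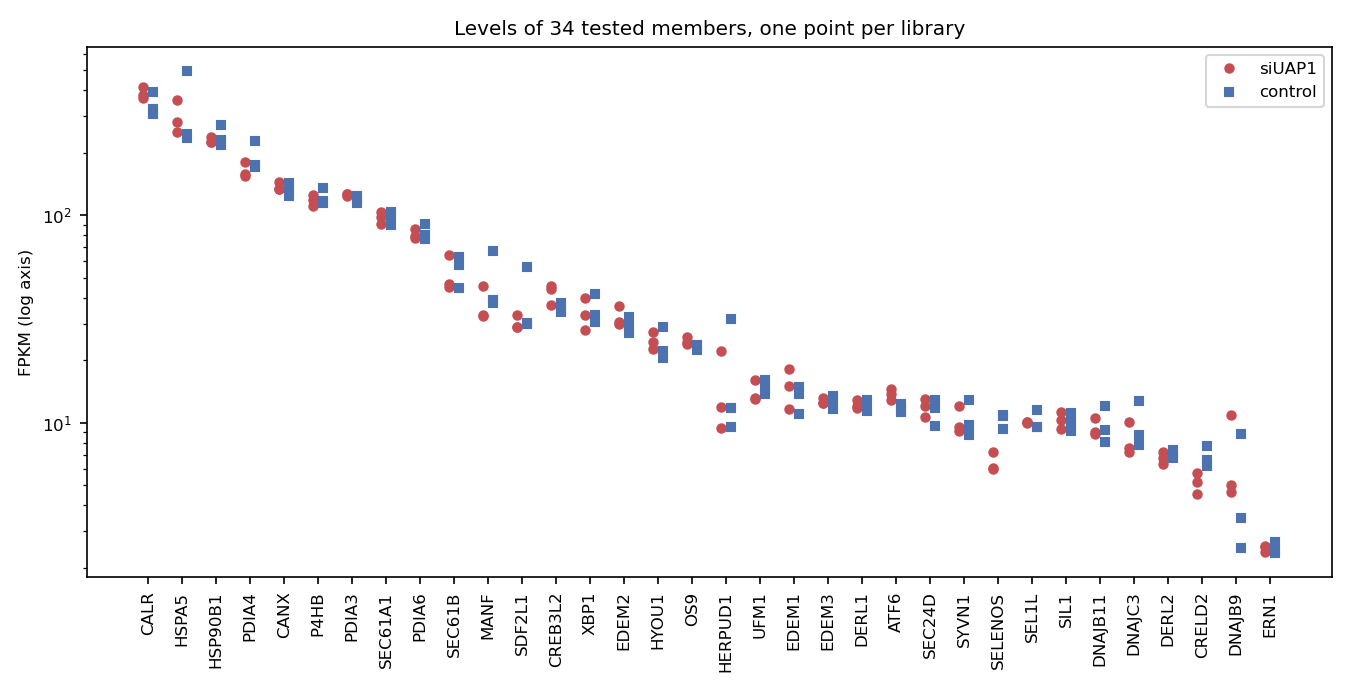
FPKM (log axis) of the 34 tested members in each library, siUAP1 as circles and control as squares, ordered by the control mean. The genes run from CALR, near 386 FPKM in siUAP1 libraries, down to ERN1, near 2.5 FPKM, and the points of the groups overlap for most of them.

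The comparison asked how these genes differed with UAP1 knocked down. Chaperones went both ways. With all 3 pairs more of the called ones fell than rose, but not without pair 1. The ER-membrane degradation gene SELENOS fell most clearly, and the transcription factor genes ATF6 and CREB3L2 rose a little. None of the 34 members was called (adjusted p under 0.05 over all 15768 genes tested) when siUAP1 and control libraries were compared as groups alone, where 0.108% of all tested genes were called (0.0317% risen, 0.0761% fallen). At an unadjusted p under 0.05 there were 4 (SELENOS, CRELD2, ATF6 and CREB3L2), where 7.13% of all tested genes passed, and the lowest adjusted p was 0.118 for SELENOS. DESeq2 called 1 member, SELENOS, where it called 0.611% of all genes with an adjusted p as risen and 0.45% as fallen. SELENOS was also the 1 member called by edgeR with no filter beyond 1 count (0.586% of all genes risen, 0.293% fallen). Libraries with the same replicate number in both groups deviated together, and a fit with that number as a block, which compares siUAP1 with control within 3 pairs, called 5 members that rose and 6 that fell. Of all tested genes, 9.07% rose and 7.14% fell in that fit (16.2% in either direction), against 14.7% and 17.6% of the members. The share of all genes depended on the filter for low counts. With a mean CPM of at least 5 the blocked fit called 2515 of 10904 genes, against 2556 of 15768 here. The same 5 and 6 members were called, so the members' distance from all genes was smaller there. DESeq2 with the same block called 4 members as risen and 4 as fallen (6.14% and 4.68% of all genes), leaving out EDEM1, SDF2L1 and DNAJC3, and edgeR with the block and no filter beyond 1 count called 5 and 7 (4.63% and 3.32%). The sign was the same in all 3 pairs for 17 of 34 members, against 47% of all tested genes. The groups did not overlap for 4 members, against 12.4% of all tested genes. The median log2 fold change was -0.02 over the members and -0.003 over all tested genes. Rose and fell refer to the fit with pairs (edgeR, n = 3 pairs). In bulk RNA a change in the number of cells of one kind cannot be told apart from a change in RNA per cell.

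**Figure D2:**
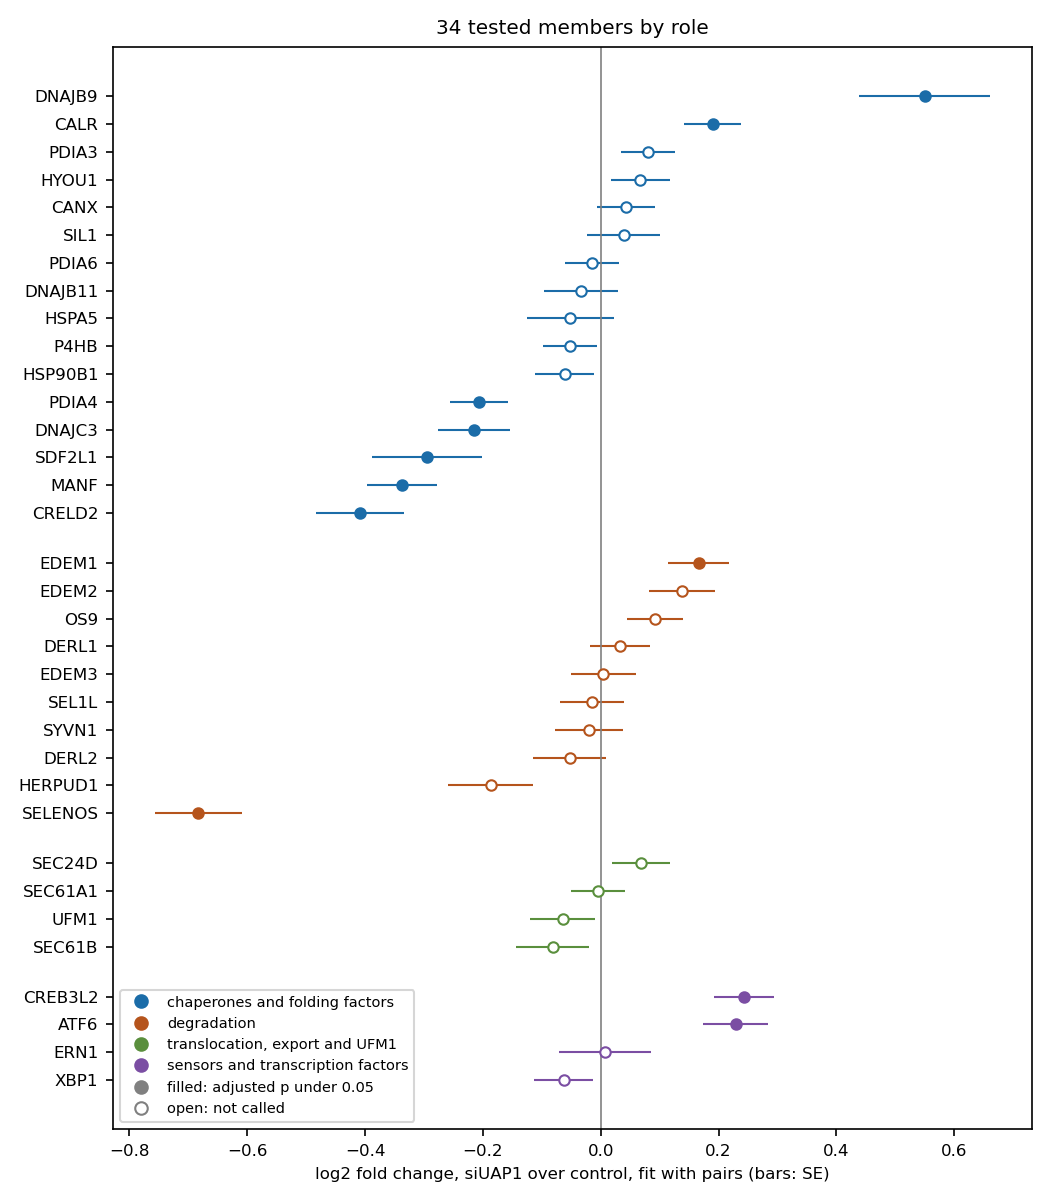
Log2 fold change, siUAP1 over control, of each tested member in the fit with pairs, with its SE, grouped by role. Filled points passed adjusted p of 0.05: SELENOS lies lowest at -0.68 and DNAJB9 highest at 0.55, and most open points lie within 0.1 of 0.

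Among the 16 chaperones and folding factors, 5 fell (31.2%), 2 rose (12.5%) and 9 were not called. The shares over all tested genes were 7.14% fallen and 9.07% risen. The excess of fallen genes rested on pair 1. Without it the called chaperones were CRELD2, MANF and PDIA4, which fell, and DNAJB9, CALR and HSPA5, which rose. The genes that fell with all 3 pairs were CRELD2, MANF, SDF2L1, DNAJC3 and PDIA4. CRELD2 (ENSG00000184164, GRCh38 chromosome 22, 49918167 to 49927540, plus strand) encodes a disulfide isomerase-like protein induced by ER stress. It was at 29.8, 23.6 and 27.0 CPM in siUAP1 libraries and at 40.03, 34.5 and 32.2 CPM in control libraries. The groups did not overlap, as was so in this direction for 5.71% of all tested genes. CRELD2 had a log2 fold change of -0.41, with an SE of 0.0748 (edgeR adjusted p = 0.000326 with pairs and 0.457 without). The ALG12 gene overlaps 3.25% of its exon sequence on the opposite strand, at 10.7 CPM against 31.2 CPM for CRELD2 over all libraries, and strand use in the counting was not given in the sources used here.

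MANF (ENSG00000145050, chromosome 3, 51385047 to 51389397, plus strand), a secreted stress-induced factor that binds BiP, was at 110, 79.3 and 79.0 CPM in siUAP1 libraries and at 162, 91.2 and 93.0 CPM in control libraries. Each pair was lower in siUAP1, but siUAP1 replicate 1 lay above control replicates 2 and 3, so that the groups overlapped. The log2 fold change was -0.34 (SE 0.0594, adjusted p = 0.000205 with pairs and 0.878 without), and without pair 1 it was -0.22 (adjusted p = 0.0044).

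SDF2L1 (ENSG00000128228, chromosome 22, 21642261 to 21644298, plus strand), a partner of the ER HSP40 proteins, was at 36.9, 32.2 and 32.0 CPM in siUAP1 and at 62.1, 33.5 and 33.0 CPM in control libraries. Control replicate 1 was nearly alone in its height. The log2 fold change of -0.30 (SE 0.0938, adjusted p = 0.0315 with pairs) became -0.05 without that pair (adjusted p = 0.777), and without pair 3 the adjusted p was 0.0536.

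PDIA4, a disulfide isomerase, was at 598, 510 and 521 CPM in siUAP1 and at 750, 578 and 565 CPM in control libraries. Every pair was lower in siUAP1, and the log2 fold change was -0.21 (SE 0.0488, adjusted p = 0.0039 with pairs and 0.869 without). DNAJC3, a lumenal J-domain co-chaperone also known as an inhibitor of PERK, was at 57.2, 42.8 and 40.9 CPM in siUAP1 and at 71.3, 49.7 and 43.9 CPM in control libraries. It too was lower in every pair, by a log2 fold change of -0.22 with an SE of 0.0606 (adjusted p = 0.0152 with pairs), and it was not called without pair 1 (adjusted p = 0.141).

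The chaperone genes that rose were DNAJB9 and CALR. DNAJB9 (ENSG00000128590, chromosome 7, 108569568 to 108574850, plus strand) encodes ERdj4, a J-domain protein that holds IRE1 inactive together with BiP. It was at 31.2, 14.4 and 13.3 CPM in siUAP1 and at 25.1, 7.16 and 9.91 CPM in control libraries. Replicate 1 was the highest of each group, the groups overlapped, and every pair was higher in siUAP1. The log2 fold change was 0.55 (SE 0.111, adjusted p = 0.000918 with pairs and 0.953 without), and without pair 2 it was 0.36 (adjusted p = 0.0201). PNPLA8 (37.3 CPM) and THAP5 (28.3 CPM) overlap 3.49% and 6.45% of its exon sequence on the opposite strand, and DNAJB9 itself averaged 16.8 CPM, so its counts are uncertain.

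CALR, on chromosome 19 (12938578 to 12944489, plus strand), was at 1140, 1033 and 1004 CPM in siUAP1 and at 1069, 889 and 838 CPM in control libraries. The log2 fold change was 0.19 (SE 0.0482, adjusted p = 0.00726 with pairs and 0.878 without). Without pair 2 or pair 3 it was not called (adjusted p = 0.0551 and 0.272). Its membrane-bound relative calnexin (CANX), at 863 ± 42.9 CPM in siUAP1 and 838 ± 58 CPM in control libraries, was not called (0.04, SE 0.0493, adjusted p = 0.638).

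**Figure D3:**
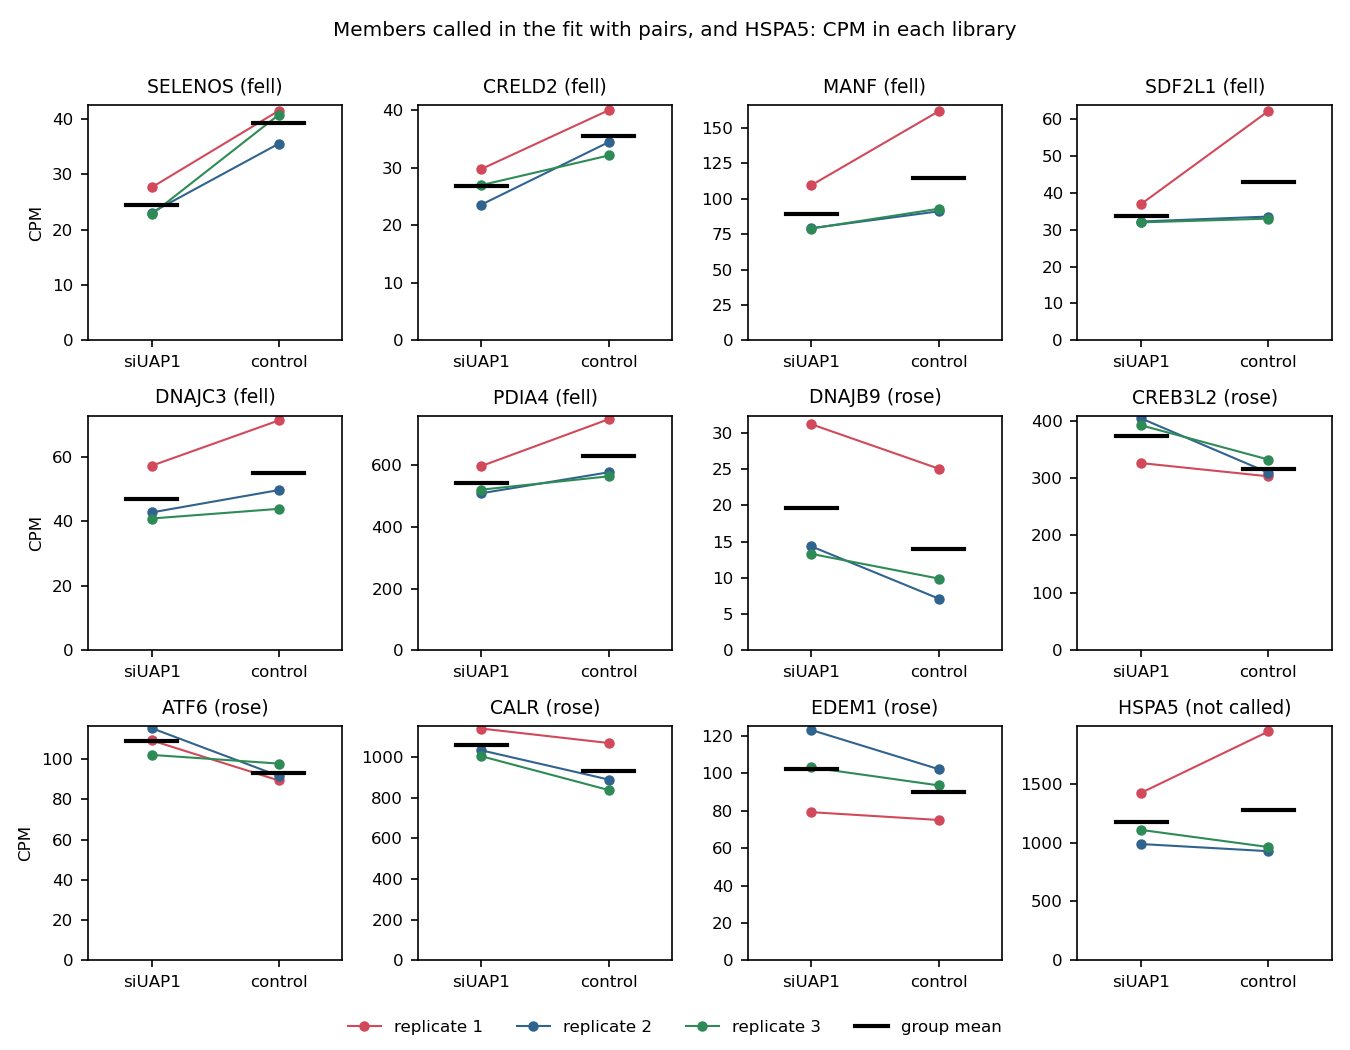
CPM in each library for the 11 called members and HSPA5, siUAP1 left and control right, with lines joining libraries of the same replicate number and bars at the group means. Every line of a called member slopes the same way, and replicate 1 stands apart in DNAJB9, MANF, SDF2L1 and HSPA5.

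BiP itself was not called. HSPA5 (ENSG00000044574, chromosome 9, 125234853 to 125241330, minus strand) was at 1422, 987 and 1107 CPM in siUAP1 and at 1942, 927 and 962 CPM in control libraries. It was lower in siUAP1 in pair 1 and higher in pairs 2 and 3, and its log2 fold change over all pairs was -0.05, with an SE of 0.0742 (adjusted p = 0.715). Without pair 1 the direction turned and the gene was called higher in siUAP1 (log2 0.15, adjusted p = 0.0163). The other 7 uncalled chaperone genes had log2 fold changes between -0.06 and 0.08. They were HSP90B1 (-0.06), the isomerases P4HB (-0.05), PDIA6 (-0.02) and PDIA3 (0.08), the co-chaperone DNAJB11 (-0.03) and the nucleotide exchange factors SIL1 (0.04) and HYOU1 (0.07). SNHG4 (51.3 CPM) overlaps 2.94% of the exon sequence of SIL1 on the opposite strand, and SIL1 is uncertain. SEs over all tested members ran from 0.0457 to 0.111, so that the fits left room for small changes in each.

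Among the 10 tested degradation genes 1 fell (10%), 1 rose (10%) and 8 were not called. Over all tested genes 7.14% fell and 9.07% rose. SELENOS (ENSG00000131871, chromosome 15, 101270817 to 101277500, minus strand) encodes a selenoprotein of the ER membrane, also called VIMP, that ties the p97 ATPase to the derlin channel. It was at 27.6, 23.1 and 22.8 CPM in siUAP1 libraries and at 41.5, 35.5 and 40.8 CPM in control libraries. All 3 siUAP1 libraries lay below all 3 control libraries, as was so for 5.71% of all tested genes. The log2 fold change was -0.68, a 1.61-fold difference (SE 0.074, adjusted p = 2.3e-07 with pairs and 0.118 without). In pairs 1 to 3 the log2 differences were -0.59, -0.62 and -0.84, and the gene remained called without any one pair (adjusted p at most 0.000648).

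EDEM1, a lectin-like mannosidase homologue that delivers misfolded glycoproteins to degradation, was at 79.2, 123 and 103 CPM in siUAP1 and at 75.0, 102 and 93.5 CPM in control libraries. Replicate 1 was the lowest of each group here, unlike in most members. The log2 fold change was 0.17 (SE 0.0521, adjusted p = 0.03 with pairs and 0.956 without), and the call was lost without pair 2 (adjusted p = 0.353) and without pair 3 (0.155). Its relatives EDEM2 (0.14, adjusted p = 0.105) and EDEM3 (0.004, adjusted p = 0.973) were not called.

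HERPUD1, a stress-induced organiser of the degradation complex, was at 116, 49.3 and 61.8 CPM in siUAP1 and at 165, 49.8 and 61.0 CPM in control libraries. Replicate 1 was again far above the others in both groups. Its log2 fold change of -0.19 (SE 0.0719) was not called (adjusted p = 0.08), and without pair 1 it was 0.002. The core ligase genes SYVN1 (-0.02) and SEL1L (-0.02) and the derlin genes DERL1 (0.03) and DERL2 (-0.05) were not called, with adjusted p between 0.645 and 0.9. MIS12 (43.1 CPM) overlaps 4.71% of the exon sequence of DERL2 on the opposite strand, and DERL2 is uncertain. SYVN1 shares 7.24% of its exon sequence with FAU on the same strand and is uncertain. OS9, a lectin that hands glycoproteins to SEL1L, was higher in all 3 siUAP1 libraries (135, 125 and 127 CPM) than in any control library (123, 118 and 123 CPM). Its log2 fold change of 0.09 was not called (adjusted p = 0.216), and 6.74% of all tested genes showed such a lack of overlap upward.

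The 4 genes of translocation, export and UFM1 tagging were not called. These are the translocon subunits SEC61A1 (log2 fold change -0.005) and SEC61B (-0.08), the COPII coat gene SEC24D (0.07) and the ubiquitin-like modifier UFM1 (-0.06), with unadjusted edgeR p with pairs between 0.18 and 0.915 and adjusted p between 0.406 and 0.963.

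Of the 4 sensors and transcription factors 2 rose (50%, against 9.07% of all tested genes) and 2 were not called. ATF6 (ENSG00000118217, chromosome 1, 161766294 to 161964070, plus strand), the sensor cleaved to release a transcription factor, was at 109, 115 and 102 CPM in siUAP1 and at 89.4, 91.6 and 97.8 CPM in control libraries. The groups did not overlap, as was so in this direction for 6.74% of all tested genes. The log2 fold change was 0.23 (SE 0.0547, adjusted p = 0.00444 with pairs and 0.628 without). It was not called without pair 2 (adjusted p = 0.0705). CREB3L2 (chromosome 7, 137874979 to 138002067, minus strand), a membrane-bound transcription factor of the ATF6 kind, was at 326, 404 and 392 CPM in siUAP1 and at 303, 309 and 332 CPM in control libraries. Its log2 fold change was 0.24 (SE 0.0507, adjusted p = 0.00123 with pairs and 0.69 without), and the call was lost without pair 2 (0.0527) and without pair 3 (0.0665). XBP1, whose mRNA IRE1 splices, was at 122, 85.3 and 102 CPM in siUAP1 and at 128, 93.7 and 101 CPM in control libraries (log2 -0.06, adjusted p = 0.462). ERN1 averaged 27.3 CPM in siUAP1 and 27.2 CPM in control libraries (0.007, adjusted p = 0.968). Gene counts show neither the splicing of XBP1 nor the cleavage of ATF6.

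Replicate number 1 carried the highest levels of most of these genes in both groups. Averaged over the siUAP1 and the control library of each number, 26 of 34 members (76.5%) were highest in number 1, against 34.7% of all tested genes. Among chaperones it was 15 of 16, and among degradation genes 9 of 10. The highest of all 6 libraries was control replicate 1 for 19 members (55.9%, against 15.2% of all tested genes). The siUAP1 library was the lower of its pair for 22 members in pair 1, for 17 in pair 2 and for 8 in pair 3, where all tested genes gave 49.7%, 51.1% and 49.6%. The median log2 difference of the 16 chaperones was -0.15 in pair 1, -0.006 in pair 2 and 0.04 in pair 3, against medians within 0.007 of 0 over all tested genes. With 1 pair of each number the difference between pairs was not tested. Replicate 1 also had the fewest counts in each group, and the part of depth in this pattern was not tested. The range over replicate numbers was larger than the difference of the groups in 28 of 34 members (82.4%), a share near that of all tested genes (82.6%).

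**Figure D4:**
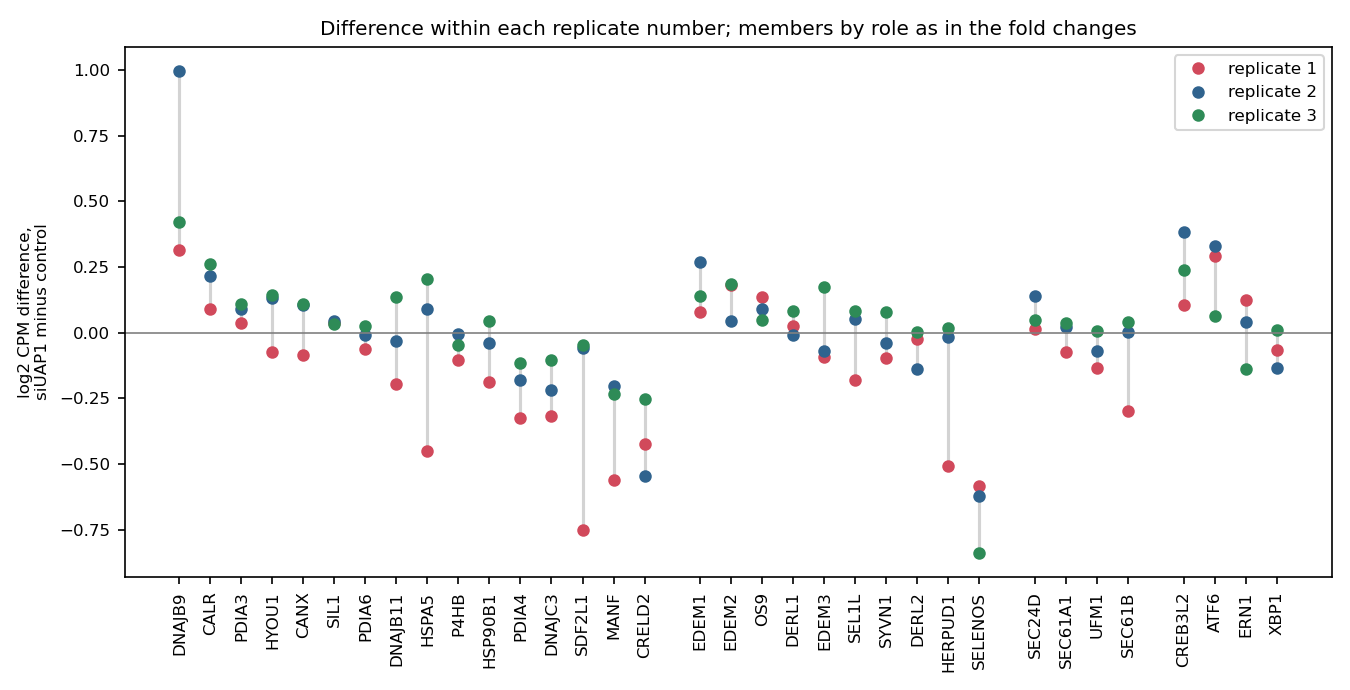
Log2 CPM difference, siUAP1 minus control, within each replicate number for the 34 tested members, in the order of the plot of fold changes. In pair 1 HSPA5, SDF2L1, HERPUD1 and MANF lie between -0.45 and -0.75, while pairs 2 and 3 lie between -0.23 and 0.2 for the same genes.

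Without pair 1 the fit called 6 members as risen (DNAJB9, CREB3L2, CALR, EDEM1, ATF6 and HSPA5) and 4 as fallen (SELENOS, CRELD2, MANF and PDIA4), where 7.8% of all tested genes rose and 6.09% fell. Without pair 2 it called 1 as risen (DNAJB9) and 7 as fallen, which added HERPUD1 to the 6, and 7.03% and 5.56% of all genes. Without pair 3 it called DNAJB9 and ATF6 as risen and 5 as fallen, all but SDF2L1 of the 6, and 4.61% and 2.81% of all genes. The calls of SELENOS, CRELD2, MANF, PDIA4 and DNAJB9 held in all 3 of these fits.

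Promoters of ER chaperone genes are known for the ER stress response element (ERSE), read by ATF6 and XBP1 together with the factor NF-Y. Promoter windows from RefSeq (GRCh38.p14, 250 bases before to 50 after each start) were found for 31 members, in 39 windows. They were searched on both strands for ERSE, which is CCAAT, 9 bases of any kind and CCACG, and for ERSE-II, which is ATTGG, 1 base of any kind and CCACG. ERSE was in the windows of 7 members and ERSE-II in those of 3 others. Either was held by 44 of all 27305 genes of the table (0.161%), these members included. Because such promoters are known for the element, its share among members is no finding of these data. The matches are shown because 10 of the 31 members held one. Each line gives 5 bases on either side of the match along the gene's strand, with the fixed letters in capitals, and a match that runs against the gene begins with CGTGG.
CRELD2, fell (chr22:49918549-49918577, plus strand): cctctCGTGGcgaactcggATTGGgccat
SDF2L1, fell (chr22:21642109-21642129, plus strand): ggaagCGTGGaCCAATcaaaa
CALR, rose (chr19:12938379-12938407, plus strand): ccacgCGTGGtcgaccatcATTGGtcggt
HSPA5, not called (chr9:125241386-125241414, minus strand): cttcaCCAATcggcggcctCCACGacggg
HSP90B1, not called, first match (chr12:103930211-103930239, plus strand): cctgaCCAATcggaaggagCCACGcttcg
HSP90B1, not called, other match (chr12:103930316-103930344, plus strand): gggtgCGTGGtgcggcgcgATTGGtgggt
PDIA6, not called (chr2:10812848-10812876, minus strand): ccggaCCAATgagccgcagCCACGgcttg
CANX, not called (chr5:179698773-179698801, plus strand): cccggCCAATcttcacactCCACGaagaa
XBP1, not called (chr22:28800598-28800626, minus strand): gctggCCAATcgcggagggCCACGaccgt
HERPUD1, not called (chr16:56932020-56932040, plus strand): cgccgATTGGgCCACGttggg
HYOU1, not called, nearer match (chr11:119057269-119057289, minus strand): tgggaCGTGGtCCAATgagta
HYOU1, not called, farther match (chr11:119057375-119057395, minus strand): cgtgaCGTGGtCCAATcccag

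Of the 10 members with a match 1 rose, 2 fell and 7 were not called, with log2 fold changes from -0.41 to 0.19 and a median of -0.06. Of the 21 members with a window and no match 4 rose, 4 fell and 13 were not called, with a median of -0.015 (from -0.68 to 0.55). Over all tested genes 9.07% rose and 7.14% fell. The members at the extremes of the list, SELENOS and DNAJB9, were both without a match. Their windows are printed with each CCACG, or CGTGG on the other strand, in capitals, a pentamer that 42.1% of all genes hold in a window and that 23 of the 31 members held.
SELENOS, fell (chr15:101277436-101277735, minus strand): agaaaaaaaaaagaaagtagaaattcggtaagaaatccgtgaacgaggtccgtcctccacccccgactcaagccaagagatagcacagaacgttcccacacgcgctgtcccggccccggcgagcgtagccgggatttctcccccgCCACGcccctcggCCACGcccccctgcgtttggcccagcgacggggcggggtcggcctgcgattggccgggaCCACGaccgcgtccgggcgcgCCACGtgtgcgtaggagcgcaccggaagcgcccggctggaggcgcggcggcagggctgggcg
DNAJB9, rose (chr7:108569624-108569923, plus strand): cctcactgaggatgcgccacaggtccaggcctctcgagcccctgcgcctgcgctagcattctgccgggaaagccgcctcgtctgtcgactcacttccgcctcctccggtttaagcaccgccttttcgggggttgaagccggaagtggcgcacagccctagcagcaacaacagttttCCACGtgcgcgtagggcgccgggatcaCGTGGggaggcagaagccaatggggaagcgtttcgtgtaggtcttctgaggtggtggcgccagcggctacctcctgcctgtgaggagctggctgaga

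SELENOS held the pentamer at 4 places and DNAJB9 at 2. A search for TGACGTGG, the core of the element read by XBP1, found it in 0.729% of all windows and in 1 member's (HYOU1), where it overlaps the farther ERSE-II. A search for TGATGCAA, a core read by ATF4, found it in 0.866% of all windows and in 1 member's (HERPUD1). A match describes letters in the window and says nothing of binding in these cells. Only exact letters in these windows were searched, so the lack of a match does not show that an element is absent.

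Other genes of the same pathways were taken as 7 lists, also chosen with earlier results of these data known. Their shares stand beside 9.07% risen and 7.14% fallen over all tested genes. Of 45 other folding factors, all tested, 7 rose (15.6%) and 2 fell (4.44%), with a median log2 fold change of 0.03. QSOX1, a sulfhydryl oxidase, fell to 1369 ± 154 CPM in siUAP1, against 1895 ± 115 CPM in control libraries (-0.47, SE 0.0489, adjusted p = 1.05e-07 with pairs and 0.236 without). The isomerase PDIA5 (0.33), TXNDC5 (0.30) and malectin (MLEC, 0.25), which binds newly attached N-glycans, rose.

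Of 39 other degradation genes 2 rose (5.13%) and 6 fell (15.4%), with a median of -0.006. BAG6, which holds membrane proteins for degradation, fell (-0.34, SE 0.048), as did UBXN8 (-0.58) and SELENOK (-0.28), a selenoprotein of the same membrane complex as SELENOS, while ERLIN1 (0.40) rose. Of 27 tested genes of the unfolded protein response 6 rose (22.2%) and 5 fell (18.5%), with a median of 0.008. CREB3L1, the closest relative of CREB3L2, rose to 64.8 ± 11.6 CPM in siUAP1, against 45.9 ± 8.03 CPM in control libraries (0.50, SE 0.0587, adjusted p = 9.35e-07 with pairs). TXNIP (0.33) and the ATF6 relative ATF6B (0.29) rose too, and MBTPS2, a protease that frees ATF6 from the membrane, fell (-0.44, SE 0.0721). MBTPS1, the other MBTPS protease of the list, went the other way and rose (0.19, SE 0.0452, adjusted p = 0.00489 with pairs). It was named after its value was seen. Genes of the PERK arm were added after their values were seen. TRIB3, a target of CHOP, rose (0.28, adjusted p = 0.000657), and PPP1R15A, which helps to reverse the phosphorylation made by PERK, fell (-0.27, adjusted p = 0.000783). The PERK gene EIF2AK3 (0.12), ATF4 (0.05), the CHOP gene DDIT3 (-0.10), PPP1R15B (-0.02), ATF3 (0.28) and CHAC1 (0.14) were not called, with adjusted p between 0.329 and 0.816.

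Of 22 translocon, signal recognition and signal peptidase genes 2 rose (9.09%) and 4 fell (18.2%), with a median of -0.06. SRPRA, the receptor of the signal recognition particle, rose to 149 ± 10.1 CPM in siUAP1, against 89.1 ± 10.3 CPM in control libraries (0.74, SE 0.0521, adjusted p = 1.56e-10 with pairs and 0.0653 without). The translocon-associated genes SSR3 (-0.29) and SSR2 (-0.26) fell, and TRAM2 (0.26) rose. Of 15 tested COPII coat genes 0 fell and 2 rose (13.3%): SEC31A (0.43, SE 0.047) and SAR1B (0.18). Of the 9 genes of the UFMylation list 0 were called in either edgeR fit (median -0.12), with 3 at an unadjusted p under 0.05 with pairs, a rule that 28.1% of all tested genes met, and 0 without. Of 8 receptors of ER-phagy 1 rose (12.5%), RETREG2 (0.16). Over the 165 tested genes of all 7 lists 20 rose and 17 fell, or 12.1% and 10.3%, against 9.07% and 7.14% of all tested genes. Without pairs 0 were called, and 17 had an unadjusted edgeR p under 0.05, a rule that 7.13% of all tested genes met.

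**Figure D5:**
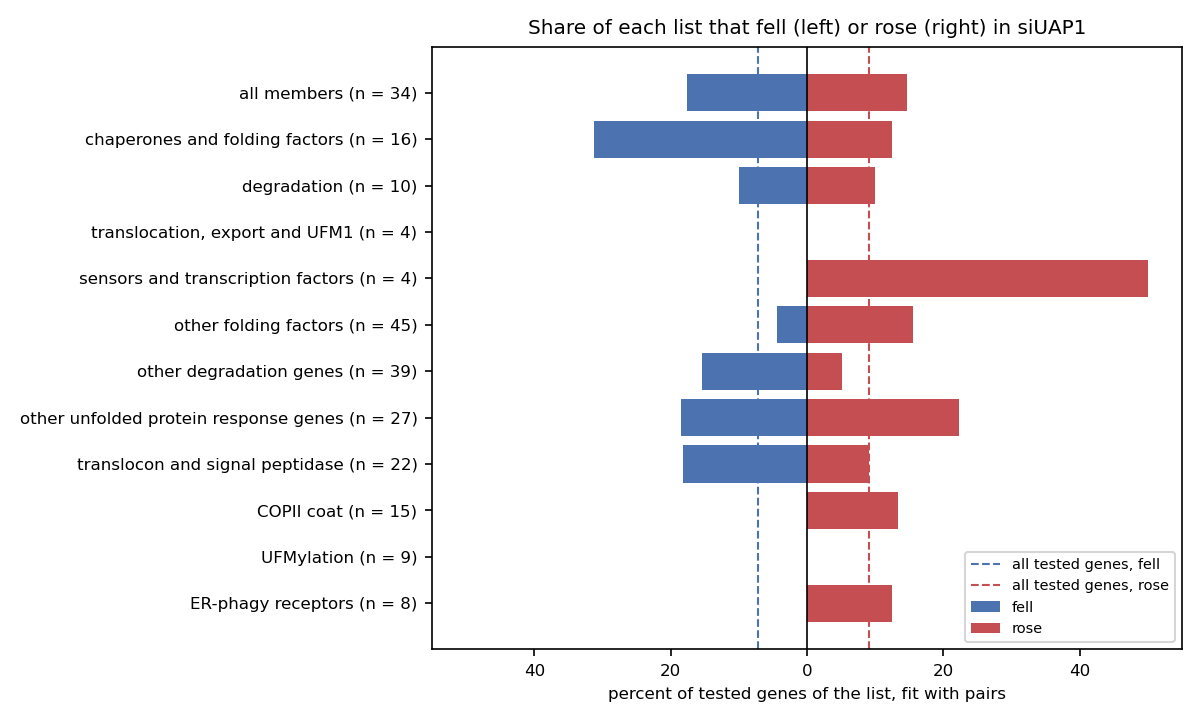
Percent of the tested genes of each list that fell (left) or rose (right) in siUAP1 in the fit with pairs, with dashed lines at the shares of all tested genes, 7.14% fallen and 9.07% risen. The chaperone list has 5 of 16 fallen, and the lists of 4 genes change by 25 points with a single gene.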

How the data were processed

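Polyadenylated RNA of 6 ES2 libraries was sequenced, 3 siUAP1 and 3 control. The deposited gene counts are whole numbers and were used as given. The deposited FPKM values equal counts per kilobase of gene length and per scaled library total, by a method not given, and served only for levels. GRCh38.p12 and DESeq2 are named in the submitters' processing notes. Aligner, counter and strand use were not given in the sources used here. All 35 members have the same start and end in GENCODE 29.

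Counts were fitted with edgeR 4.0.16 (R 4.3.3): TMM scaling, filterByExpr with a minimum count of 10, a quasi-likelihood test of siUAP1 against control, with p adjusted by Benjamini-Hochberg over 15768 genes and called under 0.05. CPM are scaled to TMM-adjusted totals and SDs are over 3 libraries. Differences within pairs are of log2 CPM with a prior count of 2. The code was tested on simulated data. Groups and replicate numbers come from the titles.

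Both groups carry replicate numbers 1 to 3 in their titles. The library names also hold a code that same-numbered libraries of both groups share. The code of number 1 begins differently from those of the other numbers, and what the codes mean is not given. Deviations from the group means over all tested genes correlated at 0.552, 0.454 and 0.584 between libraries of the same number, each over the minimum of 0.1 that had been set, so same-numbered libraries were treated as pairs, and the fit with the number as a block is given beside the fit without it.

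The members and lists were chosen with earlier results of these data known. Named are UAP1, every member and, per other list, up to 4 called genes by size of change. MBTPS1 and genes of the PERK arm were added after their values were seen. The symbol MARCH6 was absent from the count table and the gene was matched by its ID, and 1 listed symbol (CTAGE5) had no match. Promoters are from the RefSeq table of GRCh38.p14, and members without a window there are named only. The sequence features of proteins were not analysed here. Alternatives were RLE scaling, library totals, other filters, DESeq2 1.42.0, the block, and leaving out each library or pair.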

Additional observations from a re-analysis of the deposited data

How the results depend on the processing

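With groups alone, 17 genes and 0 members were called. RLE scaling, library totals without TMM and a mean CPM of at least 5 gave 17, 19 and 21 genes and 0 members. No filter beyond 1 count gave 273 genes, and DESeq2 gave 165, each with 0 members risen and 1 fallen (SELENOS). The cause was not tested. Leaving out each library in turn gave 1 to 3 genes and 0 members risen or fallen, with fewer libraries to test.

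The fit with the replicate block called 2556 genes, with 5 members risen and 6 fallen. Within it, RLE scaling gave 2539 genes with 5 and 6 members, no filter beyond 1 count gave 2469 with 5 and 7 (HERPUD1 added), and DESeq2 gave 1311 with 4 and 4. Library totals without TMM (2587 of 15768 genes) and a mean CPM of at least 5 (2515 of 10904 genes) gave 5 and 6 members. These 2 alternatives were chosen after seeing the data. Leaving out replicate 1, 2 or 3 from both groups gave 2204, 1987 or 1195 genes, 1 to 6 members risen and 4 to 7 fallen. HSPA5 had a log2 fold change of -0.12 without the block, and 0.148 in the blocked fit without replicate 1, where it was called. That was the only called reversal among members.

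In the blocked fit and its 8 alternatives SELENOS, CRELD2, MANF, PDIA4 and DNAJB9 were called in all 9. The median log2 fold change of all genes lay between -0.013 and -0.000141 over them. The members' median size of change was 0.0677 on the log2 scale, against a median range of 0.258 over replicate numbers. The blocked calls rest on 3 pairs whose shared source the labels do not state. Gene counts show no splicing, protein level or cleavage.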
